A study of Homo sapiens with 6 samples.

Results

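Keratins are the intermediate filament proteins of epithelial cells. A filament is built from pairs of an acidic type I keratin and a basic type II keratin, and which pair a cell makes depends on the epithelium: KRT5 and KRT14 in the basal layer of the epidermis, KRT8 and KRT18 in simple, single-layered epithelia. Cultured keratinocytes can carry both sets, and mutations of KRT5 or KRT14 cause the blistering disease epidermolysis bullosa simplex. The basal and simple epithelial keratins described here are 9 genes chosen by symbol: KRT5, KRT14 and KRT15 of the basal layer, KRT7, KRT8, KRT18 and KRT19 of simple epithelia, KRT13 of mucosal stratified epithelia, and the type II keratin KRT80. All 9 were found among the 21961 symbols of the deposited tables and all 9 passed the filter on low counts.

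RNA was sequenced from HaCaT, a spontaneously immortalised line of human keratinocytes, in 3 libraries titled Nvs and 3 titled mod. By the series' title and design text, one arm received UVB plus nanovesicles from Beta vulgaris (beet) and the other UVB alone. The sample labels give the Nvs libraries as control and the mod libraries as UV-induced, so text and labels disagree on the Nvs arm, and the groups keep their titles here. The labels call replicates biosamples without naming separate cultures, so the spread behind each p-value may be technical only, and they give no UVB dose, vesicle dose or harvest time. Total counts were 41120058 to 44080808 in Nvs and 45637046 to 51369628 in mod.

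The mitochondrial genome took 51.8% to 53.3% of the counts in Nvs libraries and 29.8% to 31.4% in mod libraries, and its part in the differences below was not tested. Counts were therefore scaled by TMM, which sets the typical gene near a change of 0. Scaled by library total, the median gene stood at -0.77 on the log2 scale (Nvs minus mod), and both scalings are given for each keratin. Bulk libraries cannot tell fewer transcripts per cell from fewer cells that make them. Keratinocyte genes marked both groups. The 9 keratinocyte identity markers, KRT5 and KRT14 among them, summed to 6056 to 6483 FPKM in Nvs and 7648 to 8374 FPKM in mod. Most of that sum came from KRT14 (4130 to 4500 FPKM in Nvs, 4436 to 4948 in mod) and KRT5, themselves keratins described here. By TMM 2 of the markers were called higher, KRT14 and LAMB3 (log2 0.51), against 22.8% of all genes. Another 4 were called lower, ITGA6 (-0.80), CDH1 (-0.70), EPCAM (-0.47) and DSG3 (-0.25), against 20.5%. The summed FPKM stood at 0.727 to 0.909 in Nvs and 1.44 to 1.76 in mod for the 6 fibroblast markers found of 9, at 0.565 to 0.907 in Nvs and 1.22 to 1.51 in mod for the 5 melanocyte markers found of 7, and at 0.888 to 1.68 in Nvs and 2.68 to 2.84 in mod for the 8 leukocyte and endothelial markers found of 9. Among them COL1A1 had 284 to 308 counts in Nvs and 587 to 804 in mod. CD14 had 50 to 112 in Nvs and 206 to 221 in mod, while COL3A1 and LYZ had no read in Nvs and at most 1 in a mod library. These sums and counts are not scaled by TMM. By TMM neither COL1A1 (log2 -0.25, edgeR adjusted p = 0.160) nor CD14 (-0.33, edgeR adjusted p = 0.367) was called. The filter on low counts left 1 fibroblast marker, 4 melanocyte markers and 1 leukocyte or endothelial marker to test. By that scaling 0 of them were called, against 43.3% of all genes tested. By library total COL1A1 (-1.01) and CD14 (-1.09) were called lower. With the trend on gene span described below removed, CD14 was called lower (-0.79, edgeR adjusted p = 0.0324) and COL1A1 was not called (-0.34, edgeR adjusted p = 0.0563). The part of such RNA in the differences was not tested.

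Relative to the typical gene, KRT14 rose 1.55-fold and KRT18 rose 1.84-fold in Nvs, KRT7 and KRT8 rose by smaller amounts, KRT13 and KRT15 fell, and KRT5, KRT19 and KRT80 did not pass the test. The edgeR quasi-likelihood test, at an adjusted p under 0.05, thus called 6 of 9 keratins, against 43.3% of all 14617 genes tested. It called 4 higher, against 22.8% of all genes, and 2 lower, against 20.5%. The TMM-scaled CPM of the groups did not overlap for 6 of the 9, where 53.6% of all tested genes showed no overlap. The count of lower calls is near its background, and with 9 genes chosen by name no test of the counts was made. The median log2 fold change of the 9 was 0.05, beside -0.01 over all genes tested.

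KRT14, the main type I keratin of basal keratinocytes, lies on chromosome 17, 41582279 to 41586921 (GRCh38, GENCODE 29, minus strand). It had 12133, 12139.7 and 13368 TMM-scaled CPM in the Nvs libraries, against 8644, 7889.7 and 7822 CPM in the mod libraries. Every Nvs library lay above every mod library. Its log2 fold change was 0.63 ± 0.06 (SE, edgeR adjusted p = 2.41e-06), and -0.13 by library total, the opposite direction. By deposited FPKM, averaged over all libraries, KRT14 ranked 2 among the nuclear genes, so it is among the most abundant messages of these cells.

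KRT5, the type II partner of KRT14, lies on chromosome 12, 52514575 to 52520687 (minus strand). Its levels were 6777, 6892 and 7237 CPM in Nvs and 7659, 6961 and 7153 CPM in mod. The groups overlapped, and the log2 fold change was -0.06 ± 0.06 (SE, edgeR adjusted p = 0.428). By library total it stood at -0.82, beside -0.77 for the median gene. KRT5 ranked 5 among nuclear genes by FPKM.

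KRT15, a type I keratin of basal cells and of hair follicle stem cells (chromosome 17, 41513743 to 41522529), had 514, 469 and 553 CPM in Nvs, against 605, 609 and 593 CPM in mod. All Nvs values were below all mod values. It fell by 0.23 on the log2 scale (SE 0.06, edgeR adjusted p = 0.00620) and by 0.99 when scaled by library total. The basal keratins thus did not move as a block: KRT14 rose, KRT15 fell and KRT5 was not called.

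**Figure D1:**
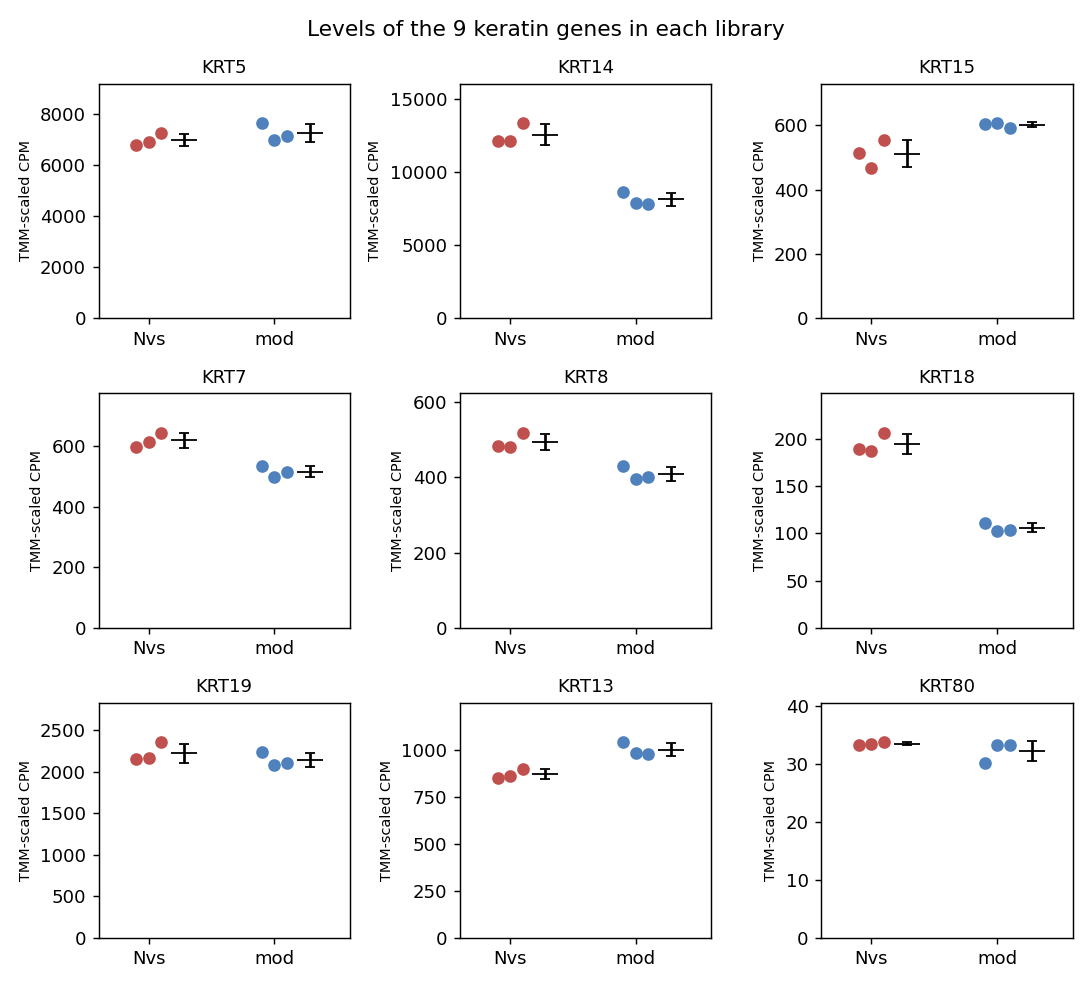
TMM-scaled CPM (vertical axes, from 0) of each of the 9 keratin genes in the 3 Nvs libraries (red) and the 3 mod libraries (blue), with the mean ± SD as a black bar beside the points. KRT14, KRT18, KRT7 and KRT8 lie higher in every Nvs library, KRT15 and KRT13 lower, and the points of KRT5, KRT19 and KRT80 overlap.

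KRT14 has close relatives that could share its reads, KRT16 and KRT17, type I keratins of stressed and wounded epidermis. The coding sequence of KRT14 was 88.7% identical to that of KRT16, with a longest identical run of 158 bases, and 85.2% identical to that of KRT17, with a longest run of 59 bases. Of the 1513 windows of 150 bases in the KRT14 transcript, the length of a read, 9 (0.595%) also occurred in another gene of GENCODE 29, which was KRT16. No such window of the other 8 keratins occurred in another gene. To show how near these relatives are, a 60-base piece of exon 6 is printed from the GENCODE 29 transcripts. It is the stretch within 1 exon whose numbers of differences are nearest to those of the whole coding sequences, and capitals mark bases that differ from KRT14. It spans chr17:41583363-41583422 in KRT14, chr17:41610459-41610518 in KRT16 and chr17:41620787-41620846 in KRT17, all on the minus strand of GRCh38.
KRT14: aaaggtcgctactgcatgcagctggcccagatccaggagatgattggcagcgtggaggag
KRT16: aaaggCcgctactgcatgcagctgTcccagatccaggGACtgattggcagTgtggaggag
KRT17: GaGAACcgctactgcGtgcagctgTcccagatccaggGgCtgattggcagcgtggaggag
KRT16 differs from KRT14 at 6 of these bases and KRT17 at 9. How the authors treated reads with several matches is not given in the sources used here.

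KRT18, the type I keratin of simple epithelia, lies on chromosome 12, 52948871 to 52952901. It had 189, 186 and 207 CPM in Nvs and 111, 102 and 104 CPM in mod. All Nvs libraries were above all mod libraries, and the rise was 0.88 ± 0.06 (log2, SE, edgeR adjusted p = 6.03e-08). KRT18 was the sole one of the 9 that stayed above 0 by library total, at 0.12, where it no longer passed the test (edgeR adjusted p = 0.0673).

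KRT8, the type II partner of KRT18 (chromosome 12, 52897187 to 52949954), had 484, 481 and 519 CPM in Nvs, against 431, 394 and 401 CPM in mod. The groups did not overlap. Its rise was 0.27 ± 0.05 (log2, SE, edgeR adjusted p = 0.00109), against -0.49 by library total. The annotated span of KRT8 covers that of KRT18 in part, on the opposite strand, and the strand setting of the authors' counting is not given in the sources used here.

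Both genes have many processed copies in the genome. The table holds 15 rows of KRT8 copies, which summed to 334 to 418 counts in Nvs and 475 to 497 counts in mod, or 1.65% to 2.53% of the KRT8 counts of the same library. Its 25 rows of KRT18 copies came to 2.95% to 4.97% of the KRT18 counts. The levels of KRT8 and KRT18 are uncertain by what reads of such copies could add or take.

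KRT7, a type II keratin of ductal and glandular epithelia (chromosome 12, 52232520 to 52252186), had 598, 616 and 646 CPM in Nvs and 534, 499.8 and 516 CPM in mod. The values did not overlap, and KRT7 rose by 0.26 ± 0.05 (log2, SE, edgeR adjusted p = 0.000976) but stood at -0.50 by library total. Its antisense gene KRT7-AS, named after its values were seen, moved the other way, with 130, 119 and 103 counts in Nvs and 704, 651 and 595 counts in mod. The log2 fold change of KRT7-AS was -1.53 ± 0.16 (SE, edgeR adjusted p = 4.28e-06) by TMM and -2.28 by library total. Because the strand setting of the counting is not given, reads of the overlapping pair may not be fully separated.

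KRT19, the smallest type I keratin (chromosome 17, 41523617 to 41528308), had 2149, 2166 and 2354 CPM in Nvs, against 2241, 2084 and 2101 CPM in mod. The groups overlapped, with a log2 fold change of 0.05 ± 0.06 (SE, edgeR adjusted p = 0.470) and -0.71 by library total. Among the simple epithelial keratins, then, 3 of 4 rose by TMM, against 22.8% of all genes tested. KRT19, which had the highest FPKM of the 4, did not pass the test. By library total KRT7 (-0.50), KRT8 (-0.49) and KRT19 were called lower and KRT18 was not called.

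KRT13, a type I keratin of the mucosal lining of mouth and oesophagus (chromosome 17, 41500981 to 41505705), had 849, 863 and 899.5 CPM in Nvs and 1041, 984 and 979 CPM in mod. All Nvs values were lower, and the gene fell by 0.20 (log2, SE 0.05, edgeR adjusted p = 0.00528), and by 0.96 when scaled by library total. KRT80, a type II keratin reported at desmosomes and later in the cytoskeleton as keratinocytes differentiate (chromosome 12, 52168996 to 52192000), had 33.3, 33.5 and 33.8 CPM in Nvs and 30.2, 33.4 and 33.3 CPM in mod. It did not pass the test, at 0.05 ± 0.08 (log2, SE, edgeR adjusted p = 0.599) and -0.70 by library total.

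Libraries of a group kept a like order over these genes: replicate 3 was the highest Nvs library for 9 of 9 keratins, and replicate 1 the highest mod library for 7 of 9. No call of a keratin was lost when any single library was left out. By library total, 8 of 9 keratins were called lower, against 68.0% of all genes, and 0 higher, against 4.03%; at an unadjusted p under 0.05 edgeR had 1 higher by that scaling, KRT18, and DESeq2 with its own size factors called 4 higher and 2 lower.

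Fold change also moved with the span of a gene on the genome. Protein-coding genes spanning 3 to 6 kb, the range of KRT5, KRT14, KRT15, KRT18, KRT19 and KRT13 in RefSeq, had a median log2 fold change of 0.32 over 927 genes (quartiles -0.06 and 0.70). KRT18 stood above the upper quartile, KRT14 and KRT19 within the quartiles, KRT5 at the lower quartile, and KRT13 and KRT15 below it. The median was 0.10 for the 12 to 24 kb of KRT7 and KRT80, and -0.16 for the 48 to 96 kb of KRT8. Medians ran from 0.58 for genes up to 3 kb to -0.32 for those above 96 kb. The KRT8 value with the trend removed therefore rests on its annotated RefSeq span of 52.67 kb, and a shorter span was not tested. With that trend removed in every library, KRT14 (0.32), KRT18 (0.55), KRT8 (0.38) and KRT7 (0.23) remained higher. KRT15 (-0.53) and KRT13 (-0.51) remained lower, and KRT5 (-0.33, edgeR adjusted p = 0.000101) and KRT19 (-0.25, edgeR adjusted p = 0.000685) were then called lower too. That made 4 higher, against 20.2% of the 14430 genes with a span, and 4 lower, against 18.4%, while KRT80 was not called at 0.02.

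**Figure D2:**
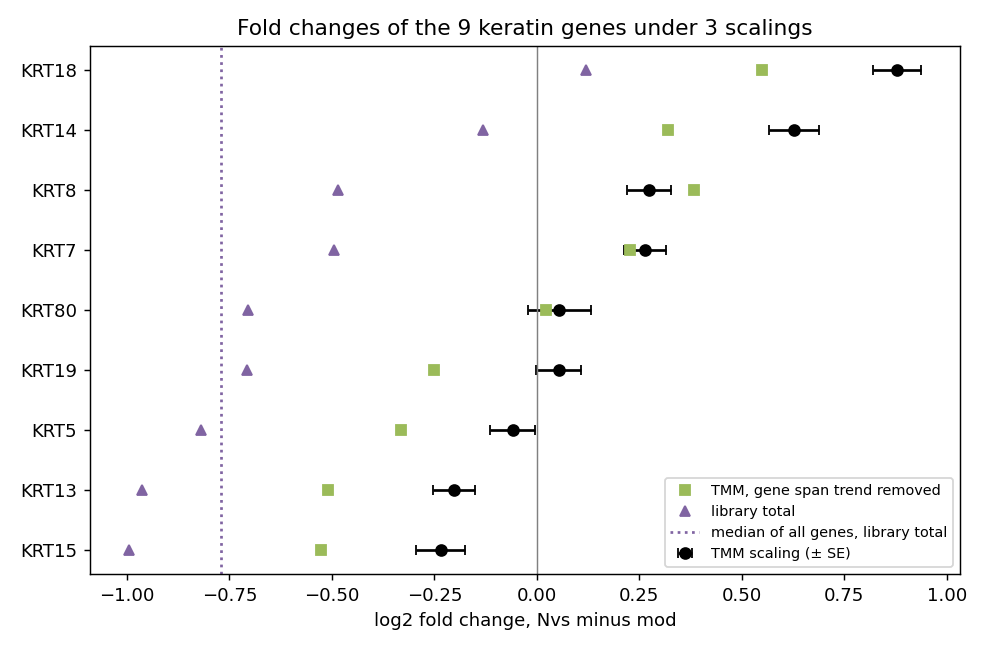
Log2 fold change (Nvs minus mod, horizontal axis) of the 9 keratin genes under TMM scaling with its SE (black circles), TMM with the trend on gene span removed (green squares) and library total (purple triangles), with the median of all genes by library total as a dotted line. KRT18 is uppermost and KRT15 and KRT13 lowest under all 3, and by library total KRT18 alone lies above 0.

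The ratio of partner transcripts within a library does not depend on how libraries are scaled. KRT5 over KRT14, by deposited FPKM, was 0.305, 0.310 and 0.295 in the Nvs libraries, against 0.483, 0.481 and 0.499 in the mod libraries. No Nvs library came near a mod library, and the difference was -0.69 on the log2 scale, with SDs of 0.03 within each group (n = 3). KRT8 over KRT18 was 1.14, 1.15 and 1.12 in Nvs and 1.73, 1.73 and 1.72 in mod, a log2 difference of -0.60. Taken from the fold changes with the span trend removed, the difference was -0.65 for KRT5 over KRT14 but -0.17 for KRT8 over KRT18. KRT8 and KRT18 differ most in annotated span among these pairs, and the -0.17 rests on the annotated span of KRT8. In both the basal and the simple pair the type II partner was lower against its type I partner in every Nvs library.

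The other pairs moved the opposite way. KRT8 over KRT19 differed by 0.22, KRT7 over KRT19 by 0.21 and KRT5 over KRT15 by 0.18 on the log2 scale, each higher in all 3 Nvs libraries than in any mod library. With the span trend removed these became 0.63, 0.48 and 0.20, of which the 0.63 rests on the annotated span of KRT8. For KRT5 over KRT15 the log2 SDs were 0.09 in Nvs and 0.07 in mod. Each of the 5 pairs had an exact two-sided permutation p of 0.1, the smallest that 3 against 3 libraries allow, and 0.1 after Benjamini-Hochberg adjustment over the 5, so none could pass 0.05. Summed over KRT7, KRT8, KRT18 and KRT19, the simple keratins over the summed basal keratins KRT5, KRT14 and KRT15 gave 0.169 ± 0.000609 in Nvs and 0.209 ± 0.00282 in mod (SD, n = 3), lower in every Nvs library (log2 difference -0.30, exact permutation p = 0.1). That sum follows KRT14, the largest basal term, and KRT19, the largest simple one, and its size depends on transcript length: with the lengths of GENCODE 29 transcripts the difference was -0.25, and with plain counts -0.17.

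**Figure D3:**
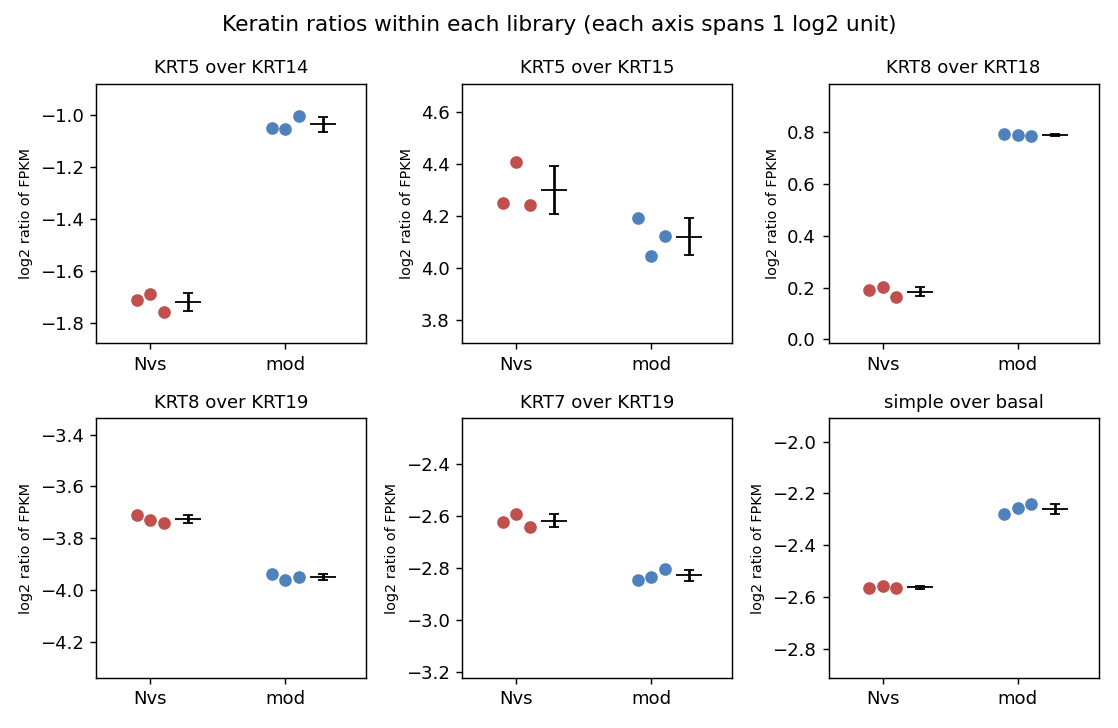
Log2 ratio of FPKM (vertical axes, each spanning 1 log2 unit) of type II over type I partner keratins, and of summed simple over summed basal keratins, in the 3 Nvs libraries (red) and the 3 mod libraries (blue), with mean ± SD in black. KRT5 over KRT14 and KRT8 over KRT18 are lower in Nvs by 0.69 and 0.60, and the other 3 pairs higher by 0.18 to 0.22.

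As a make-up of the 9-keratin transcripts by FPKM, KRT14 took 62.6% ± 0.405 in Nvs and 51.8% ± 0.466 in mod (SD, n = 3). KRT5 took 19.0% in Nvs and 25.3% in mod, and KRT19 took 10.7% in Nvs and 13.2% in mod. KRT18 held 0.712% in Nvs and 0.495% in mod. KRT14 and KRT18 were the 2 whose share was higher in Nvs, and the shares of the other 7 were lower in every Nvs library, as shares that must sum to a whole allow. Together the 9 genes took 3.88%, 3.93% and 4.08% of the counts outside the mitochondrial genome in Nvs, against 3.96%, 3.68% and 3.69% in mod. These totals overlapped (exact two-sided permutation p = 0.3).

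**Figure D4:**
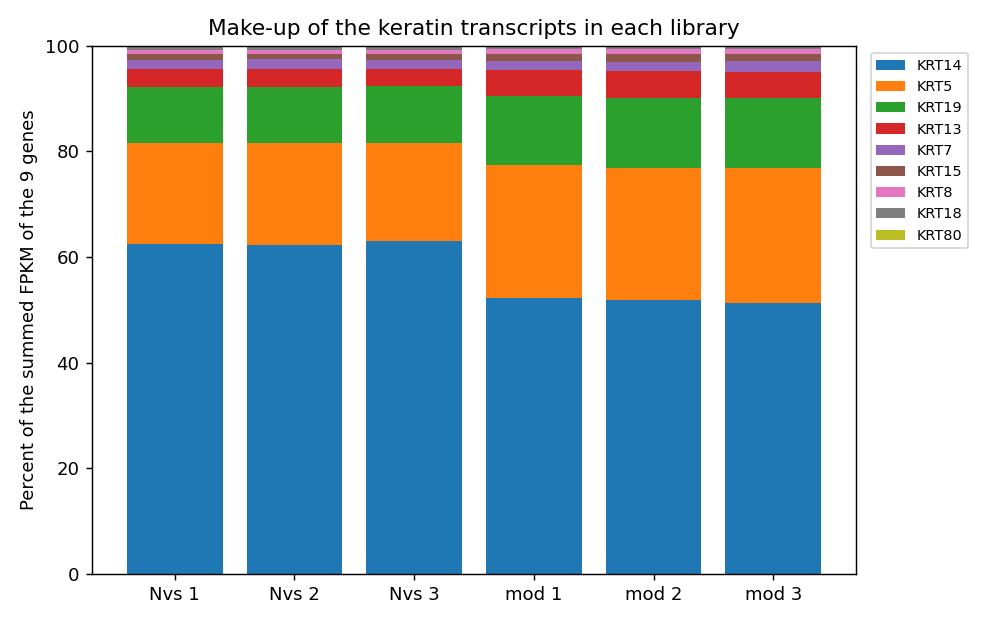
Percent of the summed FPKM of the 9 keratin genes (vertical axis) taken by each gene, 1 bar per library, Nvs left and mod right. KRT14 takes 62.3% to 63.1% in Nvs libraries and 51.3% to 52.2% in mod libraries, while KRT5, KRT19 and KRT13 take less in Nvs.

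The order of levels per length was the same in both groups by deposited FPKM. KRT14 (4259 ± 209 in Nvs, 4661 ± 261 in mod) led KRT5 (1291 ± 34.4 in Nvs, 2273 ± 103 in mod), KRT19 (728 ± 31.7 in Nvs, 1187 ± 45.8 in mod), KRT13 (229 ± 5.13 in Nvs, 445 ± 15.7 in mod) and KRT7 (119 ± 3.71 in Nvs, 167 ± 4.51 in mod). Then came KRT15 (65.7 ± 5.09 in Nvs, 131 ± 3.46 in mod), KRT8 (55.0 ± 1.96 in Nvs, 76.9 ± 3.45 in mod), KRT18 (48.4 ± 2.36 in Nvs, 44.5 ± 1.86 in mod) and KRT80 (5.88 ± 0.00826 in Nvs, 9.58 ± 0.579 in mod). All differences between neighbours in this order exceeded their SDs. The lengths behind these values, from counts over FPKM, were 6904 to 6912 bases for KRT8 and 5989 to 5996 for KRT15, whereas the GENCODE 29 transcripts with the longest coding sequence have 1687 and 2394 bases. With the GENCODE lengths KRT8 (225 ± 8.04) passed KRT15 (164 ± 12.8) in Nvs while KRT15 (327 ± 8.64) and KRT8 (315 ± 14.1) lay within their SDs of each other in mod, and the other 7 kept their rank.

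Other keratins were examined from a list of 46 symbols, of which 22 were in the table and 17 were tested. Of these, edgeR called 8 higher and 0 lower, against 22.8% and 20.5% of all genes tested. At an unadjusted p under 0.05 edgeR also had 0 lower, and DESeq2 called 7 higher and 0 lower. By library total 3 were higher and 3 lower, against 4.03% and 68.0% of all genes. The median was 0.63, beside -0.01 over all genes, and -0.12 by library total, beside -0.77. Each of these list medians was the value of KRT81, which averaged 0.287 CPM in Nvs and 0.184 CPM in mod and was not called. KRT17 had 501, 500.2 and 564 CPM in Nvs, against 72.1, 67.2 and 69.1 CPM in mod, and no Nvs library overlapped a mod library. KRT17 rose by 2.91 ± 0.06 (log2, SE, edgeR adjusted p = 4.96e-12; 2.15 by library total). KRT16 had 614 ± 42.4 CPM in Nvs and 191 ± 12.7 CPM in mod (SD, n = 3), a rise of 1.68 (0.92 by library total). The 3 rows of KRT16 copies came to 1.27% to 1.74% of the KRT16 counts in Nvs and 7.13% to 8.63% in mod. What reads of these copies could add to or take from KRT16 was not tested. The other stress keratins rose by 1.33 (KRT6C), 1.14 (KRT6B) and 0.26 (KRT6A) on the log2 scale. KRT6A stood at -0.50 by library total and was not called with the span trend removed. By library total KRT6C (0.57, edgeR adjusted p = 0.0725) and KRT6B (0.39, edgeR adjusted p = 0.0884) did not pass the test. Their levels were low, at 4.98 CPM in Nvs and 1.98 CPM in mod for KRT6C and 10.5 CPM in Nvs and 4.77 CPM in mod for KRT6B. The 3 KRT6 genes are near copies of each other, so their split of reads is uncertain.

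KRT10 and KRT1, a pair made above the basal layer of the epidermis, rose as well, whereas KRT9, the suprabasal keratin of palm and sole, was not called. KRT10 had 78.0 ± 7.10 CPM in Nvs and 34.7 ± 1.92 CPM in mod (log2 1.17 ± 0.08 SE, 0.41 by library total). KRT1, its type II partner, had 67.7 ± 2.09 CPM in Nvs and 44.3 ± 1.22 CPM in mod (0.61 ± 0.06, but -0.14 by library total). KRT4, a mucosal keratin, rose by 0.45 ± 0.17 (edgeR adjusted p = 0.0470; -0.31 by library total, and not called with the span trend removed). KRT3 (0.44), KRT9 (-0.01), KRT32 (-0.42), KRT36 (0.70), KRT74 (-1.20), KRT77 (0.68), KRT78 (1.04), KRT81 (0.63) and KRT86 (0.45) did not pass the test, and all but KRT9 were below 4 CPM in both groups.

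Set against the basal keratins within each library, other keratins differed in direction. The log2 difference was 2.28 for KRT17 over KRT14, 1.05 for KRT16 over KRT14, 0.54 for KRT10 over KRT14 and 0.67 for KRT1 over KRT5, with all Nvs libraries above all mod libraries. KRT6A over KRT14 was lower in every Nvs library, by 0.36 on the log2 scale, and KRT1 over KRT14 overlapped between groups at -0.01. These 6 ratios were chosen after the values were seen. The exact two-sided permutation p was 0.8 for KRT1 over KRT14 and 0.1 for each of the other 5, or 0.12 adjusted over the 6.

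Genes that anchor keratin filaments were mostly lower. Of 16 linker and desmosome genes, 11 fell and 1 rose, against 20.5% and 22.8% of all genes tested. Their median was -0.27, beside -0.01 over all genes. By library total 15 were lower and 0 higher, against 68.0% and 4.03% of all genes. At an unadjusted p under 0.05 by that scaling the counts were the same. EVPL, which encodes envoplakin, had 152 ± 7.41 CPM in Nvs and 230.4 ± 20.0 CPM in mod (log2 -0.60 ± 0.07 SE). The desmosomal cadherins DSG2 and DSC2 fell by 0.51 and 0.42 on the log2 scale, and PKP3, plakophilin 3, was the one that rose (0.28 ± 0.07, -0.48 by library total). With the span trend removed, 8 of the 16 were lower and 2 higher, against 18.4% and 20.2% of all genes with a span. The 2 higher were PKP2 (0.41) and DST (0.16). PKP3 was then not called (0.10, edgeR adjusted p = 0.217), and DST had been called lower before.

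Transcription factors and receptors known to act on keratin genes moved in both directions. Of 22, edgeR called 10 higher and 3 lower (median 0.27), against 22.8% and 20.5% of all genes. With the span trend removed, 7 were higher and 4 lower (median 0.06), against 20.2% and 18.4% of all genes with a span. By library total the count was 2 higher and 13 lower, against 4.03% and 68.0% of all genes. The median was then -0.48, beside -0.77 over all genes. The AP-1 subunit FOSL1 had 210 ± 11.2 CPM in Nvs and 47.6 ± 3.62 CPM in mod, and JUN had 262 ± 7.05 CPM in Nvs and 81.5 ± 5.94 CPM in mod. PITX1, a homeobox factor, rose by 0.81 ± 0.06 (log2, SE; 0.05 by library total). NOTCH1 fell by 0.42 and SP1 fell by 0.33. GRHL2, an epithelial grainyhead factor, fell by 0.38 but stood at -0.05 with the span trend removed, where it was not called (edgeR adjusted p = 0.604).

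Of 9 tested intermediate filament genes outside the keratins, 0 rose and 3 fell, against 22.8% and 20.5% of all genes. The count of rises was also 0 at an unadjusted p under 0.05 and by DESeq2. VIM, NES, GFAP and PRPH averaged at most 1.48 CPM in either group, so depth limits their calls. The 3 that fell were the lamins LMNB2 (log2 -0.55) and LMNB1 (-0.80), and SYNM, synemin (-0.91), which averaged 3.65 CPM in Nvs and 6.84 CPM in mod. Of 15 tested genes that modify or turn over keratins, 3 rose and 3 fell (median 0.01), against the same shares of all genes. By library total 1 was higher and 11 lower, against 4.03% and 68.0% of all genes. SFN, the 14-3-3 sigma protein that binds keratins, had 4484 ± 320.1 CPM in Nvs and 2028 ± 119 CPM in mod, and the ubiquitin ligase gene STUB1 rose by 0.62 and YWHAZ, another 14-3-3 gene, by 0.15, which became -0.14 and -0.61 by library total. STUB1 was not called with the span trend removed (0.20, edgeR adjusted p = 0.0910). The 3 genes of this list that fell were PPL, the envelope plakin periplakin (-0.40), CUL3, a cullin of ubiquitin ligases (-0.58), and the kinase gene MAPK14 (-0.40). PPL is also counted among the linker and desmosome genes that fell.

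**Figure D5:**
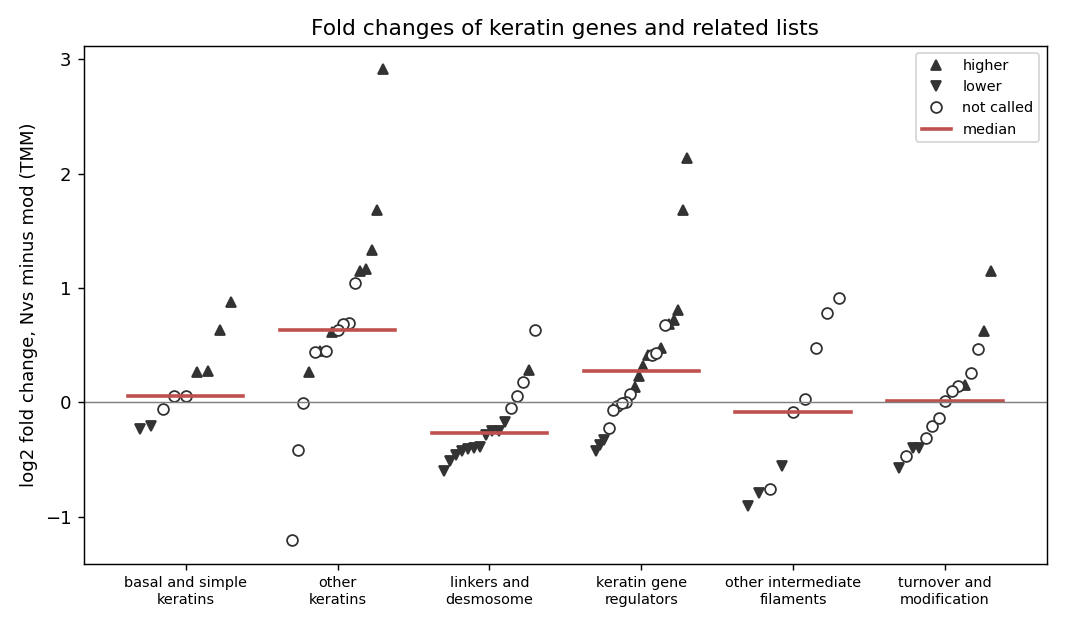
Log2 fold change (Nvs minus mod, TMM scaling, vertical axis) of each tested gene of the 9 basal and simple keratins and of 5 related lists, with the median of each list as a red line. Filled triangles mark genes called higher or lower at an adjusted p under 0.05, open circles those not called. The other keratins have their median at 0.63, the value of KRT81, a gene of low counts that was not called. The linker and desmosome genes have theirs at -0.27.

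Over the 6 libraries, the protein-coding genes most like 4 of the keratins in TMM-scaled log2 CPM, of 2641 compared, were taken as a description. They were PSMB5, AP2S1 and NOP53 for KRT14 (Pearson r 0.9985 to 0.9993), PHLDA3, TYMP and BLVRB for KRT18 (0.9998 each), TBRG4, HOMER3 and RUVBL2 for KRT8 (0.9967 to 0.9990) and MVP, PKM and SDF4 for KRT5 (0.9788 to 0.9907). The points share libraries and 2 groups, and no p is given.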

How the data were processed

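Gene counts and FPKM values were deposited by the authors as 2 tables with a row per symbol. Per the labels, libraries were poly(A)-selected, strand-specific and read as paired ends of 150 bp. Per the submitters' processing notes the build is hg38; no label or file header names an aligner, counter, annotation or strand setting. Deposited counts were fitted in R 4.3.3 with edgeR 4.0.16 (filterByExpr, minimum count 10, minimum total 15; TMM; quasi-likelihood F test, group as sole term), with Benjamini-Hochberg adjustment over 14617 genes and calls at an adjusted p under 0.05. The SE is the size of the log2 fold change over the square root of F. Alternatives used DESeq2 1.42.0, limma 3.58.1 on log2(FPKM + 0.1) and log2(FPKM + 1), library totals, other filters, a trend on RefSeq gene span (GRCh38.p14) and each library left out. Ratios used the authors' FPKM, which depend on their transcript lengths. Replicates differed beyond sampling noise in every pair (chi-square per degree of freedom 12.0 to 15.9). The edgeR fit was tested on simulated data. The 9 keratins and the lists were chosen with earlier results of these data known. Named genes were all 9, every other tested keratin, the 3 called genes of smallest adjusted p in each direction of 4 lists, and the 3 genes most correlated with KRT5, KRT14, KRT8 and KRT18 at a mean CPM of at least 50; KRT7-AS, PKP2, DST, COL1A1, CD14, COL3A1 and LYZ were named after their values were seen. Reference sequences came from GENCODE 29.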

Additional observations from a re-analysis of the deposited data

How the results depend on the processing

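The scaling of libraries decided most directions. By library total, by limma on log2(FPKM + 0.1) and by limma on log2(FPKM + 1), 10527, 10717 and 10719 genes were called in place of 6328, and 0, 0 and 0 keratins were called higher and 8, 7 and 7 lower, in place of 4 and 2. In that order the log2 fold changes became -0.13, -0.13 and -0.13 for KRT14, -0.50, -0.49 and -0.49 for KRT7, -0.49, -0.48 and -0.48 for KRT8, -0.71, -0.70 and -0.70 for KRT19, and -0.70, -0.69 and -0.62 for KRT80. With the span trend removed, where the KRT8 values rest on its annotated span, 4 keratins were lower and KRT19 turned to -0.25. The ratio differences then became -0.65 for KRT5 over KRT14, -0.17 for KRT8 over KRT18, 0.63 for KRT8 over KRT19 and 0.48 for KRT7 over KRT19, and KRT1 over KRT14 turned to 0.0186 (-0.0539 to 0.0235 with single libraries left out), an alternative added after seeing the data. The keratin share of nuclear counts, 0.189 percentage points higher in Nvs, turned to -0.745 as a share of all counts and -0.280 as a share of summed FPKM outside the mitochondrial genome. The simple over basal ratio was -0.17 with counts and -0.25 with GENCODE transcript lengths, a choice made after seeing the data. TMM without mitochondrial counts, DESeq2, both other count filters and the replicate block kept 4 higher and 2 lower. Replicate numbers paired no libraries (correlation of deviations -0.02, -0.01 and -0.02 for equal numbers), and the replicate block called 5949 genes. Without single libraries, KRT5 over KRT14 ranged from -0.70 to -0.67 and KRT8 over KRT18 from -0.61 to -0.59, and 5159 to 6392 genes were called. Depth limits KRT81, KRT86 and other keratins below 1 CPM.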
